A study of Mus musculus with 16 samples.

Results

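Mitosis and kinetochore genes encode the machinery that condenses, attaches, separates and divides chromosomes. The set described here has 47 genes, listed by symbol for their known roles and found among the 55291 gene symbols of the tables. All 47 were present, and all 47 were among the 18745 genes that passed the filter on low counts. Their levels were followed in the spleens of male C57BL/6 mice during topical imiquimod, an agonist of the RNA-sensing Toll-like receptor TLR7 that is used to induce psoriasis-like skin inflammation.

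The mice were PKR KO or WT. PKR, encoded by Eif2ak2, is a protein kinase activated by double-stranded RNA. Groups were KO day 0, WT day 0, KO day 1, WT day 1, KO day 2, WT day 2, KO day 5 and WT day 5 of a daily 62.5 mg dose of cream with 5% imiquimod on shaved back skin. Each of the 8 groups had 2 libraries of ribosomal RNA-depleted, stranded total RNA, and each of the 16 libraries pooled 2 spleens from 2 mice after passage through a 70-µm mesh and red cell lysis. No group received cream without imiquimod, so the drug, the cream, the handling and the passage of days cannot be told apart. Which stretch of the PKR gene the KO mice lack is not labelled. With 2 pooled libraries a group, all p-values measure the spread between such libraries.

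Libraries held 35026754 to 67333830 fragments, and replicates correlated at Spearman's rho of 0.986 to 0.993 across genes. Eif2ak2 was still counted in KO libraries, at 12.4 and 15.4 CPM (fragment counts scaled to library size, as described under processing) at day 0, 43.0 and 37.0 at day 1, 47.5 and 21.5 at day 2, and 15.8 and 18.8 at day 5. In WT libraries it stood at 24.9 and 26.6 CPM at day 0, 101 and 96.1 at day 1, 32.8 and 42.5 at day 2, and 29.2 and 30.2 at day 5. KO libraries were below WT on each day except for the library labelled KO_D2 replicate 1, which at 47.5 CPM was above both WT libraries of that day and goes against its label. The main counts and medians that use it are given with and without it, as is the range by which single members moved. The splenic macrophage transcription factor gene Spic was counted in every library, at 6.60 to 15.0 CPM. Spleens are mixtures, and in bulk RNA fewer or more cells of a type cannot be told apart from less or more RNA per cell.

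Entry into mitosis is driven by Cdk1 with cyclins A and B, helped by the kinases Plk1 and Aurka. The spindle checkpoint holds back Cdc20 and the anaphase-promoting complex until every kinetochore is attached; the complex then marks cyclin B and securin for destruction, which frees separase to cut the cohesin that joins sister chromatids. Most of these genes are transcribed late in the cell cycle, and in mouse spleen they mark dividing lymphoblasts, plasmablasts and, where red cell production moves to the spleen, erythroid precursors.

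Many genes of this kind carry CCAAT boxes, bound by NF-Y, and a CHR element, bound by the MuvB complexes DREAM and B-Myb-MuvB, close to their start. RefSeq promoter windows (250 bases before to 50 after the annotated start, GRCm38.p6) were available for 40 of the 47 members. The letters TTTGAA or TTTAAA, taken as a CHR element, occurred on either strand in 33 of the 40, or 82.5%, against 30.6% of all 27025 genes with such a window and 28.6% of 28 DNA replication genes. CCAAT occurred on either strand in 72.5% of members, against 41.1% of all genes and 67.9% of replication genes. Both together occurred in 67.5% of members, 13.4% of all genes and 21.4% of replication genes. An E2F-type site, TTCCCGC or TTGGCGC on either strand, was present in 17.5% of members, 7.79% of all genes and 60.7% of replication genes; its second form can overlap a CCAAT box. These are letter matches, not binding sites.

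**Figure D1:**
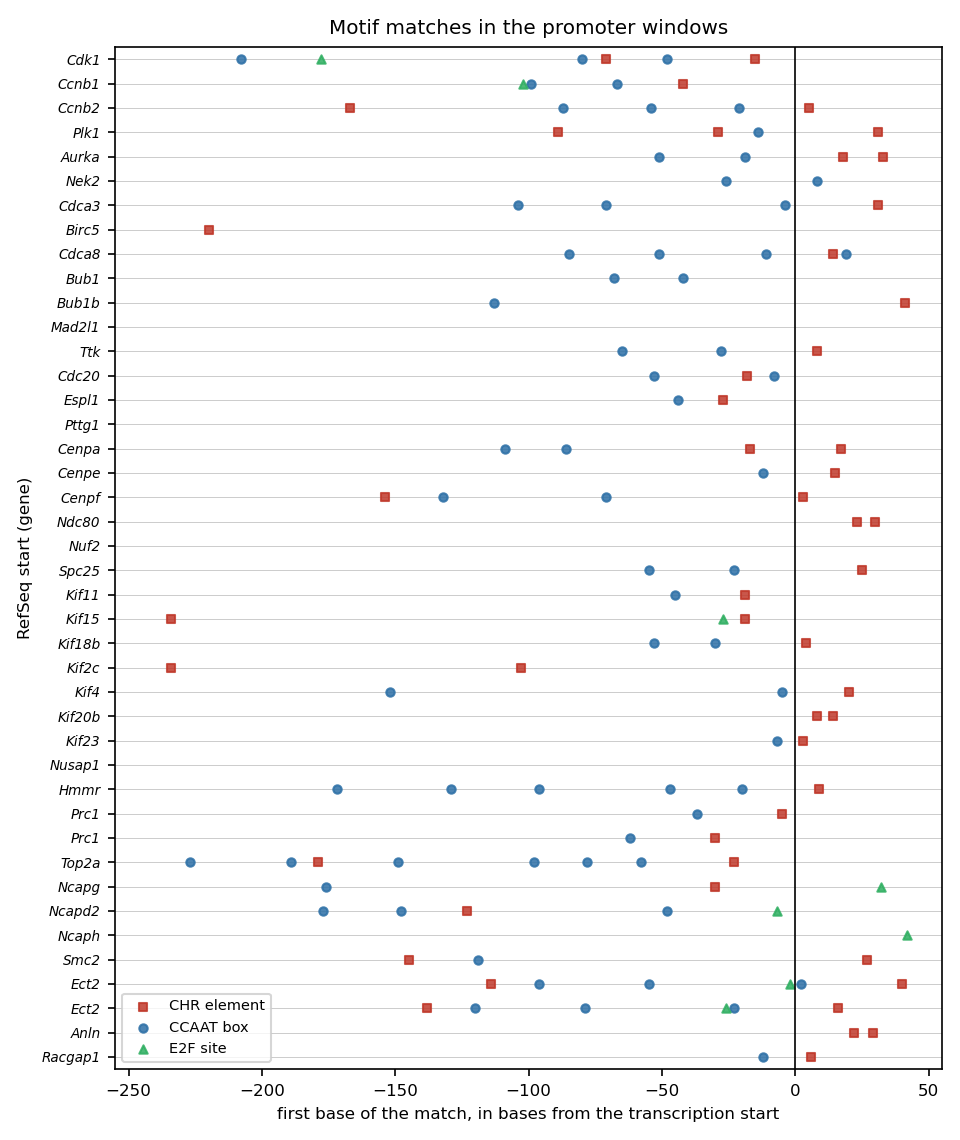
Positions of CHR, CCAAT and E2F letter matches in the RefSeq windows of 40 members, in bases from the annotated transcription start (vertical line); Prc1 and Ect2 have a row for each of several annotated starts. CHR and CCAAT matches are present in most rows and lie mostly close to the start, and 7 of the 40 genes have an E2F match.

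The 150 bases before the RefSeq start are shown, 5' to 3' on the gene's own strand, for members of 5 roles whose values are given further on: the entry kinases Cdk1 and Plk1, the anaphase activator Cdc20 and the checkpoint gene Bub1b, the kinetochore gene Ndc80, the spindle motor Kif11, and the chromosome condensation genes Top2a and Ncapg. They were picked with their motif matches known, to show windows with and without a CHR match. Pttg1, chosen after its values were seen because it did not move with the others, is shown beside them. Capitals mark the matches to the CHR element (TTTGAA or TTTAAA, or the reverse complement TTCAAA) and to the CCAAT box (CCAAT or its reverse complement ATTGG).
Cdk1 promoter, chr10:69352913-69353062, minus strand: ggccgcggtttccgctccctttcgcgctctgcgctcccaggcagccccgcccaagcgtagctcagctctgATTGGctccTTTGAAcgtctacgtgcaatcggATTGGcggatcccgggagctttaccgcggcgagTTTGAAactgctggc
Plk1 promoter, chr7:122159285-122159434, plus strand: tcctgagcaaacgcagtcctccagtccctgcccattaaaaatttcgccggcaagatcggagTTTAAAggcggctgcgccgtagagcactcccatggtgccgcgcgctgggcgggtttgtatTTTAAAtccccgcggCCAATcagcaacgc
Cdc20 promoter, chr4:118437344-118437493, minus strand: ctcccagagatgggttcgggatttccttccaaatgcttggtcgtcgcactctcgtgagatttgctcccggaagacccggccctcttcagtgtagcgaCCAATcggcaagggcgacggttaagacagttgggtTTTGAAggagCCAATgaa
Bub1b promoter, chr2:118598061-118598210, plus strand: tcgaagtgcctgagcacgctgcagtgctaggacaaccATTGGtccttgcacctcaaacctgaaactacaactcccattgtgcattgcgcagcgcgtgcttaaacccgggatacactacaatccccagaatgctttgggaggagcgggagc
Ndc80 promoter, chr17:71526858-71527007, minus strand: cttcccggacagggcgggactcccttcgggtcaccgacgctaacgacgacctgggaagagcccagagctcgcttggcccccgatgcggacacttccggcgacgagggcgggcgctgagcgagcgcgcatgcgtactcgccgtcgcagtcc
Kif11 promoter, chr19:37376232-37376381, plus strand: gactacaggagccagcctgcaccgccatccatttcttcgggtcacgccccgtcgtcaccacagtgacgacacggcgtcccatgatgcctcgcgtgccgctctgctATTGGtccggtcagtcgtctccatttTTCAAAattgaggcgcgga
Top2a promoter, chr11:99024190-99024339, minus strand: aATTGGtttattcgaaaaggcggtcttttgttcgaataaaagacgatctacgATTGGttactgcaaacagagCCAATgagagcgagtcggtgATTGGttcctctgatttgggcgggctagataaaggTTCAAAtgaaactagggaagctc
Ncapg promoter, chr5:45669775-45669924, plus strand: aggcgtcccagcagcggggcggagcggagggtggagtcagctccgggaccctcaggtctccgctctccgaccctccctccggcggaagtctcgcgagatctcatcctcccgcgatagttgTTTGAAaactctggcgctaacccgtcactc
Pttg1 promoter, chr11:43425982-43426131, minus strand: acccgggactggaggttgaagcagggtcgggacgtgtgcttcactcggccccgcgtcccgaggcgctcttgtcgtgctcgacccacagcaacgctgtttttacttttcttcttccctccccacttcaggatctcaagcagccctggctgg
In Cdk1, Plk1, Cdc20, Kif11, Top2a and Ncapg a CHR match lies in the 150 bases before the start, as it does in 15 of the 40 members with a window. The share over all genes was computed for the whole windows only, so this count has no such share beside it. Bub1b and Ndc80 have none in these 150 bases and rose as well; their CHR matches lie after the start. The whole Pttg1 window holds none of the 3 motifs, nor do those of Mad2l1, Nuf2 and Nusap1, which rose; other annotated Pttg1 transcripts start elsewhere, and nothing about a factor follows from the absence of these letters.

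Imiquimod was followed by a rise of nearly the whole mitosis set in both genotypes, present by day 1 and larger on day 2. On day 1, 45 members were higher than on day 0 in KO spleens and none lower, with a median log2 change of 2.17 (adjusted p under 0.05, edgeR's quasi-likelihood test with Benjamini-Hochberg adjustment over all genes). In WT spleens 46 were higher and none lower, with a median of 1.94. Of all 18745 genes, 41.6% were called in KO on that day (20.7% higher, 20.9% lower) and 44.6% in WT (21.9% higher, 22.7% lower), and the median over all genes was -0.04 in KO and -0.07 in WT. On day 2 all 47 members were called in both genotypes, 46 higher and 1 lower, with a median log2 change of 3.19 in KO and 2.79 in WT, where 49.6% of all genes were called in KO (24.0% higher, 25.6% lower) and 45.2% in WT (22.3% higher, 23.0% lower). The median over all genes was -0.06 in both. Without the library labelled KO_D2 replicate 1, 46 members were higher and none lower in KO, and the median was 2.94. The changes of these 46 were then smaller by 0.13 to 0.42 on the log2 scale, and the call of Pttg1 alone ended. Plk1, Espl1 and Ttk kept the largest changes, at 3.79, 3.76 and 3.68, and Cenpa had 1.11.

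**Figure D2:**
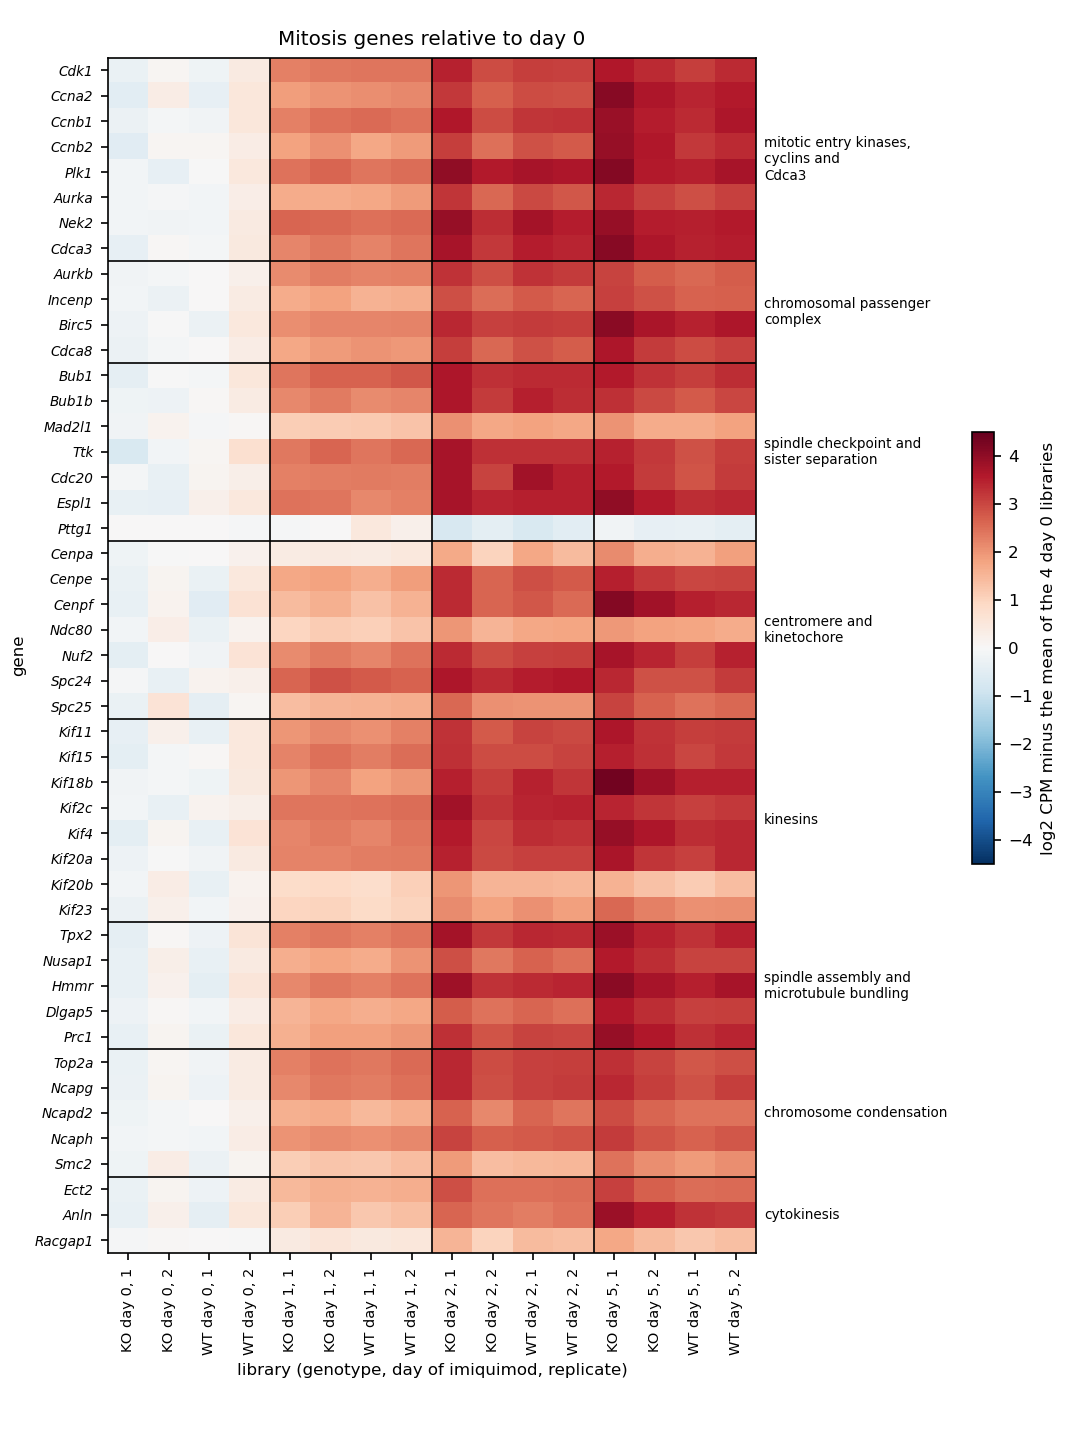
Heat map of the 47 members (rows, by role) in the 16 libraries (columns, by day, KO left of WT), as log2 CPM minus the mean of the 4 day 0 libraries. All rows but Pttg1 are red on days 1, 2 and 5; Cenpa, Racgap1, Kif20b and Ndc80 are the palest of the rising rows.

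The entry kinases and cyclins, with Cdca3, which takes part in degrading the Cdk1 inhibitor Wee1, rose in all 8 members on day 1, with a median log2 change of 2.43 in KO and 2.15 in WT. Plk1 (chr7:122159439-122169873, plus strand) had 2.53 and 2.13 CPM at day 0, 15.0 and 16.8 at day 1, 43.8 and 32.5 at day 2, and 48.3 and 32.4 at day 5 in KO libraries. In WT libraries it had 2.72 and 3.84 CPM at day 0, 14.5 and 15.6 at day 1, 35.4 and 34.4 at day 2, and 30.8 and 36.1 at day 5. Every library of days 1, 2 and 5 was above every day 0 library of its genotype, and those of day 2 were above those of day 1. The day 2 change from day 0 was 4.02 ± 0.22 on the log2 scale in KO (SE, n = 2 and 2, edgeR adjusted p = 5.97e-10), a 16.3-fold rise (13.8-fold without the library labelled KO_D2 replicate 1), and 3.40 ± 0.21 in WT (adjusted p = 2.96e-09). Cdk1, the central mitotic kinase, had 4.26 and 5.59 CPM at day 0, 24.8 and 27.0 at day 1, 57.8 and 40.1 at day 2, and 63.8 and 53.2 at day 5 in KO libraries. In WT libraries Cdk1 stood at 4.51 and 6.81 CPM at day 0, 27.3 and 27.5 at day 1, 45.1 and 44.2 at day 2, and 45.3 and 53.3 at day 5. Ccnb1, its cyclin B1 partner, rose by 3.49 ± 0.24 on the log2 scale on day 2 in KO (edgeR adjusted p = 4e-08) and by 3.00 ± 0.23 in WT (adjusted p = 1.53e-07). Nek2, a kinase that helps separate the centrosomes, was among the members with the largest day 2 change in WT, 3.46 ± 0.21 (adjusted p = 1.33e-09). The processed pseudogenes Ccnb1-ps, Gm12856 and Gm8416 match Ccnb1 at 97.3% to 99.2% of bases over about 1290 bases, but none exceeded 0.685 CPM, while Ccnb1 had at least 3.90 CPM.

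The chromosomal passenger complex corrects faulty attachments between chromosomes and spindle. Its 4 members, the kinase Aurkb and its partners Incenp, Birc5 (survivin) and Cdca8 (borealin), all rose on day 1, with a median of 2.14 in KO and 1.90 in WT, and on day 2, with a median of 3.13 in KO (2.89 without the library labelled KO_D2 replicate 1) and 2.78 in WT. Aurkb had 4.20 and 4.47 CPM at day 0, 20.8 and 23.4 at day 1, 45.5 and 35.4 at day 2, and 39.1 and 31.1 at day 5 in KO libraries. In WT libraries Aurkb had 4.84 and 5.49 CPM at day 0, 22.0 and 22.5 at day 1, 45.1 and 42.3 at day 2, and 28.2 and 31.2 at day 5. Both WT libraries of day 5 were below both of day 2, while in KO the day 5 and day 2 values overlapped.

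The spindle checkpoint and sister separation group has 7 members: the checkpoint kinases and proteins Bub1, Bub1b, Mad2l1 and Ttk, the anaphase activator Cdc20, separase (Espl1) and securin (Pttg1). On day 2 Espl1 rose by 3.92 ± 0.16 on the log2 scale in KO (SE, edgeR adjusted p = 6.5e-12) and Ttk by 3.91 ± 0.23 (adjusted p = 4.09e-10), the largest changes there after Plk1. In WT the day 2 rise of Cdc20 was 3.44 ± 0.22 (edgeR adjusted p = 8.6e-09), next to Nek2. Cdc20 had 4.13 and 3.48 CPM at day 0, 20.9 and 21.6 at day 1, 57.4 and 35.6 at day 2, and 52.2 and 38.4 at day 5 in KO libraries. In WT libraries Cdc20 had 4.77 and 5.25 CPM at day 0, 22.2 and 21.3 at day 1, 59.2 and 49.7 at day 2, and 30.7 and 38.6 at day 5. Bub1b, the checkpoint protein BubR1, rose by 3.61 ± 0.18 in KO (edgeR adjusted p = 6.2e-11) and by 3.18 ± 0.17 in WT (adjusted p = 2.59e-10) on day 2. Mad2l1, which with Bub1b inhibits Cdc20, changed least of the rising members of this group, by 1.91 ± 0.15 in KO and 1.77 ± 0.15 in WT.

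Securin, the inhibitor and chaperone of separase, was the exception. Pttg1 (chr11:43420264-43425981, minus strand) had 8.62 and 8.81 CPM at day 0, 8.24 and 8.75 at day 1, 5.27 and 6.27 at day 2, and 7.74 and 6.62 at day 5 in KO libraries. In WT libraries it had 8.62 and 8.37 CPM at day 0, 12.1 and 10.1 at day 1, 5.32 and 6.19 at day 2, and 6.84 and 6.36 at day 5. All day 2 libraries were below all day 0 libraries. The day 2 change was -0.59 ± 0.16 on the log2 scale in KO (SE, n = 2 and 2, edgeR adjusted p = 0.0041) and -0.56 ± 0.16 in WT (adjusted p = 0.00666). The KO call was lost without the library labelled KO_D2 replicate 1 (-0.48, edgeR adjusted p = 0.0521) and in a fit of only the groups compared (-0.53, adjusted p = 0.0572), and the WT call without WT_D2 replicate 1 (-0.40, adjusted p = 0.123). On day 1 Pttg1 changed by -0.04 ± 0.15 in KO (edgeR adjusted p = 0.872) and rose by 0.38 ± 0.15 in WT (adjusted p = 0.0442, with 0.00144 to 0.288 over the alternatives); the KO value changed sign under other settings. On day 5 it was -0.28 in KO (edgeR adjusted p = 0.155) and -0.36 in WT (adjusted p = 0.0692). All 10 annotated Pttg1 transcripts had lower means on day 2 than on day 0 in both genotypes, with log2 ratios of -0.64 to -0.39 in KO and -0.56 to -0.34 in WT. Since isoforms share fragments, these 10 values are not independent.

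**Figure D3:**
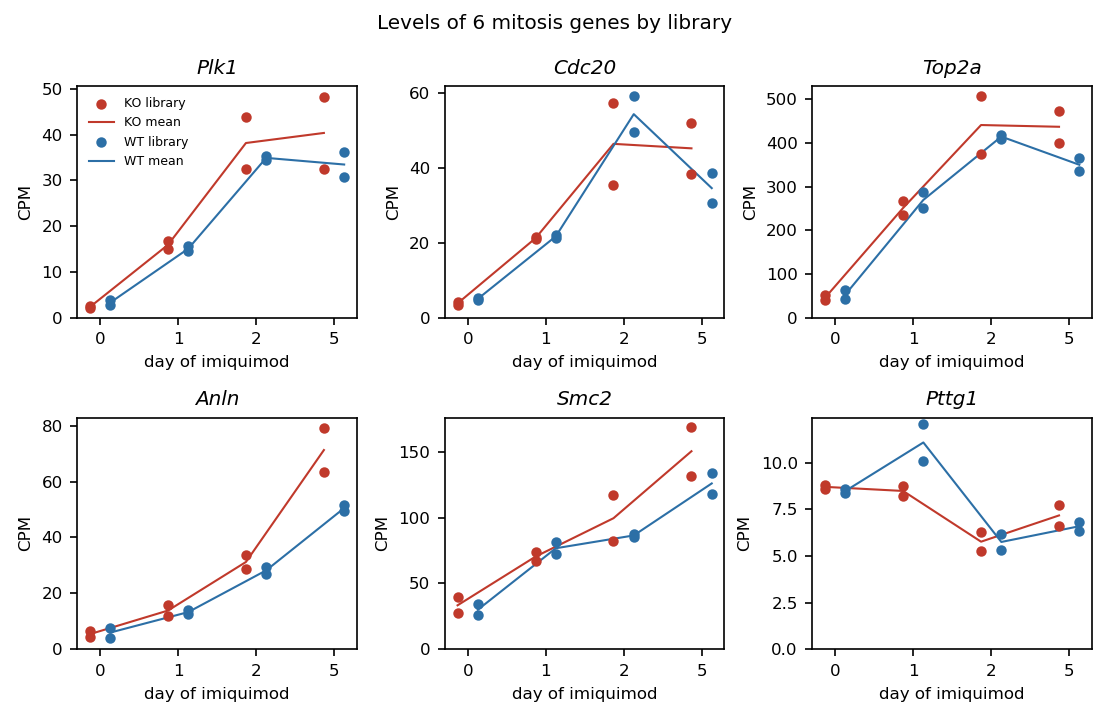
CPM of Plk1, Cdc20, Top2a, Anln, Smc2 and Pttg1 by day of imiquimod, with a point for each library and a line through the means of 2 libraries, KO drawn left of WT. In WT, Plk1, Cdc20 and Top2a climb to day 2 and then level off or drop; Anln and Smc2 are highest on day 5, and Pttg1 is lowest on day 2.

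Of the 7 centromere and kinetochore genes, 6 were higher on day 1 and all 7 on day 2 in each genotype. The outer kinetochore subunit Spc24, part of the Ndc80 complex that grips microtubules, had the largest day 1 change of all members, 2.92 ± 0.20 on the log2 scale in KO (SE, edgeR adjusted p = 6.49e-09) and 2.50 ± 0.19 in WT (adjusted p = 2.47e-08). Ndc80 itself was less changed on day 2, at 1.67 ± 0.18 in KO (edgeR adjusted p = 4.98e-07) and 1.82 ± 0.18 in WT (adjusted p = 2.01e-07). Its libraries had 5.99 and 7.93 CPM at day 0, 12.8 and 14.5 at day 1, 25.7 and 18.6 at day 2, and 25.5 and 22.9 at day 5 in KO, and 5.24 and 7.24, 13.7 and 15.9, 22.0 and 22.3, and 22.4 and 20.5 CPM on the same days in WT. Ndc80 shares 303 bases with the transcript 2700099C18Rik at 95.05% identity, and how the counting treated shared fragments is not stated. 2700099C18Rik reached 7.56 CPM in its highest library, above the 5.24 CPM of the lowest Ndc80 library. Cenpa, the histone H3 variant that marks the centromere, was a late riser, as was the cytokinesis gene Racgap1. It had 7.02 and 7.90 CPM at day 0, 10.4 and 10.6 at day 1, 26.3 and 16.1 at day 2, and 35.0 and 25.0 at day 5 in KO libraries. In WT libraries Cenpa had 8.11 and 9.11 CPM at day 0, 10.3 and 11.0 at day 1, 26.7 and 21.3 at day 2, and 23.8 and 28.7 at day 5. The libraries of day 1 were above those of day 0, but the change was not called, at 0.49 ± 0.21 in KO (edgeR adjusted p = 0.0744) and 0.31 ± 0.21 in WT (adjusted p = 0.234). It was called on day 2, at 1.51 ± 0.21 in KO (edgeR adjusted p = 1.96e-05) and 1.47 ± 0.21 in WT (adjusted p = 2.44e-05). The KO day 1 change was called under some alternatives, as without the low-count filter (0.50, edgeR adjusted p = 0.00701) and with only the groups compared (0.52, adjusted p = 0.0135). Without composition scaling the day 1 change was called in KO (0.63, edgeR adjusted p = 0.0322) and WT (0.61, adjusted p = 0.0305). Under most of the 28 alternatives it was not called. With the most counted transcript of any type, here one annotated as a retained intron, the WT day 1 value was -0.64. Cenpf, a large protein of the outer kinetochore, varied most between replicates, with 8.84 and 19.8 CPM in WT on day 0.

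All 8 kinesins were higher on days 1, 2 and 5 in both genotypes. Kif11, the motor that pushes spindle poles apart, had 11.4 and 17.3 CPM at day 0, 58.2 and 65.8 at day 1, 139 and 100 at day 2, and 181 and 141 at day 5 in KO libraries. In WT libraries Kif11 had 11.5 and 20.2 CPM at day 0, 60.9 and 70.6 at day 1, 121 and 115 at day 2, and 126 and 131 at day 5. Kif18b, which acts on the tips of astral microtubules, had the largest change of any member on day 5, 4.24 ± 0.22 on the log2 scale in KO (SE, edgeR adjusted p = 3.55e-10), an 18.9-fold rise, and 3.32 ± 0.21 in WT (adjusted p = 5.29e-09). Kif20b changed least of the kinesins on day 5, by 1.33 ± 0.20 in KO (edgeR adjusted p = 5.44e-05) and 1.35 ± 0.20 in WT (adjusted p = 6.47e-05). Kif20a overlaps Cdc23 on the opposite strand over 34.6% of its exonic bases, and the counts are not stated to use strand. Cdc23 reached 30.0 CPM in its highest library, while the lowest Kif20a library had 4.32 CPM. Such overlaps concern 8 members, also Prc1, Ncapg, Ccna2, Kif4, Nek2, Plk1 and Cdc20; in 9 of 11 pairs of single-exon genes, the gene nested inside another on the opposite strand had under 5% of the enclosing gene's count per base, and the highest share was 40.0%.

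The 5 spindle assembly and bundling genes rose together: Tpx2, which activates Aurka, Nusap1, Hmmr and Dlgap5, which bind spindle microtubules, and Prc1, which bundles the central spindle. Tpx2 had 5.61 and 7.62 CPM at day 0, 35.6 and 38.1 at day 1, 98.5 and 66.9 at day 2, and 107 and 81.5 at day 5 in KO libraries. In WT libraries Tpx2 had 6.23 and 10.9 CPM at day 0, 35.3 and 39.3 at day 1, 77.6 and 74.9 at day 2, and 70.5 and 82.2 at day 5. On day 5 Hmmr had the largest change in WT, 3.44 ± 0.30 on the log2 scale (edgeR adjusted p = 4.96e-06), beside 3.93 ± 0.31 in KO (adjusted p = 1.5e-06).

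Among the chromosome condensation genes, Top2a, the topoisomerase that untangles sister chromatids, was the most abundant member per length in all 8 groups, at 8.23 FPKM in KO and 9.84 FPKM in WT on day 0. The median member then stood at 1.76 FPKM in KO and 2.07 FPKM in WT. On day 2 Top2a reached 81.9 FPKM in KO and 75.8 FPKM in WT, and the median member 14.0 FPKM in KO and 13.1 FPKM in WT. In KO_D2 replicate 2 alone Top2a had 67.0 FPKM and the median member 10.7 FPKM. By library, Top2a had 39.3 and 51.9 CPM at day 0, 235 and 267 at day 1, 507 and 375 at day 2, and 474 and 400 at day 5 in KO. In WT it had 43.7 and 62.2 CPM at day 0, 252 and 287 at day 1, 410 and 419 at day 2, and 335 and 365 at day 5. The condensin subunits Ncapg, Ncapd2, Ncaph and Smc2, which loop and compact chromatids, also rose on day 1 and day 2. Among condensin genes outside the set, Ncapg2 rose on day 2 by 2.97 in KO and 2.70 in WT on the log2 scale. Ncaph2 rose by 0.93 in KO and 0.92 in WT. With KO_D2 replicate 1 left out, KO day 2 changes were 2.71 for Ncapg2, 0.73 for Ncaph2, 0.38 for Ncapd3 and -0.17 for Smc4. In that fit the rise was not shared by all condensin genes. Ncapg rose by 3.22 ± 0.22 on the log2 scale on day 2 in KO (edgeR adjusted p = 1.71e-08) and by 3.00 ± 0.22 in WT (adjusted p = 3.56e-08). Smc2, an ATPase of both condensin complexes, rose by 1.58 ± 0.20 in KO (edgeR adjusted p = 9.28e-06) and by 1.53 ± 0.20 in WT (adjusted p = 1.54e-05). At the other end of the order per length, Ttk was lowest on day 0, at 0.374 FPKM in KO and 0.678 FPKM in WT, and Pttg1 on day 2, at 3.32 FPKM in KO and 3.28 FPKM in WT.

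The 3 cytokinesis genes, the RhoA activator Ect2, its partner Racgap1 and the contractile ring scaffold Anln, rose less on day 1, with a median of 1.37 in KO and 1.15 in WT. Racgap1 had 17.7 and 19.3 CPM at day 0, 24.7 and 26.7 at day 1, 53.0 and 37.4 at day 2, and 62.4 and 49.3 at day 5 in KO libraries. In WT libraries Racgap1 had 18.6 and 18.4 CPM at day 0, 25.0 and 26.6 at day 1, 50.1 and 47.1 at day 2, and 42.7 and 47.8 at day 5. It started high and was among the least changed members on each day, at 1.29 ± 0.15 on the log2 scale on day 2 in KO (edgeR adjusted p = 1.18e-06) and 1.39 ± 0.15 in WT (adjusted p = 5.14e-07). Ect2 rose by 2.77 ± 0.20 on day 2 in KO (edgeR adjusted p = 8.03e-09) and by 2.37 ± 0.19 in WT (adjusted p = 4.33e-08).

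The further rise between day 1 and day 2 was seen in most members. In KO, 45 members were higher on day 2 than on day 1 and Pttg1 was lower, with a median log2 change of 0.99, where 21.9% of all genes were called (11.3% higher, 10.6% lower) with a median of -0.04. Without the library labelled KO_D2 replicate 1, 31 members were higher and none lower, with a median of 0.73. In WT, 43 were higher and Pttg1 lower, with a median of 0.91, where 31.6% of all genes were called (16.4% higher, 15.1% lower) with a median of -0.02. Not called were Smc2 in KO (0.50 ± 0.19, edgeR adjusted p = 0.0773) and, in WT, Ccna2 (0.79 ± 0.30, adjusted p = 0.0701), Smc2 (0.17 ± 0.19, adjusted p = 0.527) and Spc25 (0.42 ± 0.23, adjusted p = 0.168). The largest changes were those of Cenpf in KO, 1.51 ± 0.36 (edgeR adjusted p = 0.0146), and Kif18b in WT, 1.44 ± 0.19 (adjusted p = 4.57e-05). Cenpf was not called without the library labelled KO_D2 replicate 1 (1.09, edgeR adjusted p = 0.101). The median member had reached 68.2% of its day 2 log2 change by day 1 in KO and 67.6% in WT. Cenpa was lowest at 32.4% in KO and 20.9% in WT, and Racgap1 next at 36.8% in KO and 34.5% in WT. Leaving out KO_D2 replicate 1 gave a KO median of 73.6%, and Cenpa was lowest at 44.3%. WT day 1 libraries had TMM factors of 1.2043 and 1.1947, while the remaining libraries lay between 0.9331 and 1.0694, and scaling to library totals alone moved the median of all genes in WT from -0.02 to -0.34. That scaling left 27 members higher and 1 lower, and 20.5% of all called genes were higher instead of 52.1%. Without WT_D1 replicate 1, 25 members were higher and 1 lower.

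DNA replication genes had a different course on the same days, as values side by side. Of 34 genes on this list, 33 in KO and 34 in WT were higher on day 1, with a median log2 change of 1.95 in KO and 1.91 in WT, close to that of the mitosis set. From day 1 to day 2, 9 of the 34 were called higher in each genotype, with a median of 0.26 in KO and 0.22 in WT. Of all genes, 11.3% in KO and 16.4% in WT were called higher in these comparisons. Without the library labelled KO_D2 replicate 1 the KO count was 4, with a median of 0.10. The summed CPM of the replication list was 447 and 467 at day 0, 1680 and 1780 at day 1, 2240 and 1900 at day 2, and 2640 and 2110 at day 5 in KO libraries, and 479 and 497, 1720 and 1780, 1960 and 2130, and 1910 and 2260 on the same days in WT. The summed CPM of the 47 mitosis genes was 339 and 429 at day 0, 1360 and 1500 at day 1, 3260 and 2330 at day 2, and 3930 and 3120 at day 5 in KO, and 361 and 506, 1400 and 1550, 2710 and 2600, and 2690 and 2910 in WT. The mitosis sum was below the replication sum in all day 1 libraries and above it in all day 2 libraries. Pcna, the sliding clamp of replication forks, changed from day 1 to day 2 by -0.01 ± 0.13 on the log2 scale in KO (edgeR adjusted p = 0.976) and by -0.09 ± 0.13 in WT (adjusted p = 0.613); it was chosen after its values were seen. No test compared the lists.

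**Figure D4:**
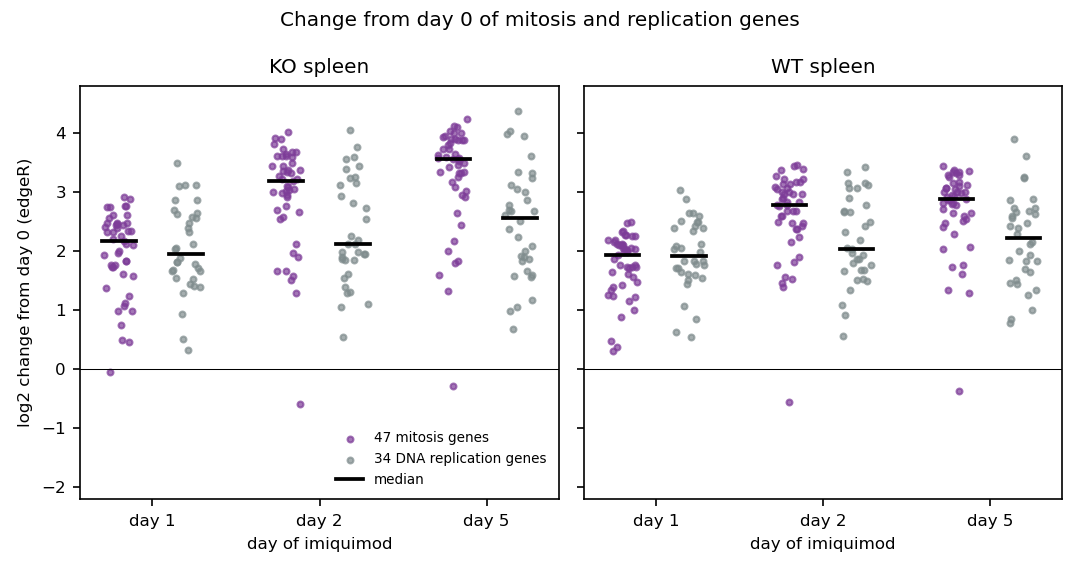
Log2 change from day 0 on days 1, 2 and 5 for each of 47 mitosis genes (purple) and 34 DNA replication genes (grey), in KO (left panel) and WT (right panel), with medians as black bars. The medians of both lists are close on day 1, at 2.17 and 1.95 in KO, and apart on day 2, at 3.19 and 2.13; the lone mitosis gene below 0 is Pttg1.

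Other genes of the mitotic apparatus were read from lists of partner complexes. Their day 2 counts are to be read against the share over all genes given above for that day. Of 15 inner kinetochore genes (CCAN), 14 in KO and 13 in WT were higher on day 2 than on day 0 and none lower, with Cenpm at 3.60 ± 0.37 on the log2 scale in KO (edgeR adjusted p = 1.67e-06) and 3.34 ± 0.35 in WT (adjusted p = 2.28e-06). All 18 further outer kinetochore and corona genes were higher in both genotypes, with Ska3, a microtubule coupler, at 3.84 ± 0.24 in KO (edgeR adjusted p = 6.99e-10) and 3.51 ± 0.23 in WT (adjusted p = 1.64e-09). Of 17 further regulators of mitotic entry, 14 were higher in KO and 15 in WT and none lower, with the Cdk1 phosphatase Cdc25c at 4.19 ± 0.26 in KO (edgeR adjusted p = 5.07e-10) and 3.55 ± 0.24 in WT (adjusted p = 1.69e-09). All 20 further spindle, cytokinesis and centriole genes were higher in both. Of 12 cohesin genes, 4 were higher and 4 lower in KO, and 3 were higher and 4 lower in WT, with a median log2 change of -0.03 in KO and 0.06 in WT. These counts are near the shares over all genes, 24.0% higher and 25.6% lower in KO and 22.3% higher and 23.0% lower in WT. The largest changes were those of Cdca5 (sororin), the cohesin protector, at 3.28 ± 0.20 in KO (edgeR adjusted p = 4.6e-10) and 3.18 ± 0.19 in WT (adjusted p = 5.76e-10), and of the acetyltransferase gene Esco2. Of 15 genes of the anaphase-promoting complex and its E2 enzymes, 8 were higher in each genotype and none lower, with a median of 0.34 in KO and 0.47 in WT, and the E2 enzyme genes Ube2c and Ube2s changed most. Ube2c rose by 3.28 ± 0.25 in KO (edgeR adjusted p = 1.4e-07) and by 3.21 ± 0.25 in WT (adjusted p = 1.73e-07). If KO_D2 replicate 1 was left out, the KO counts were 3 higher and 4 lower for cohesin and 6 higher for the anaphase-promoting complex, and did not change for the other 4 lists.

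On day 5 the set stayed high. In KO, 46 members were higher than on day 0 and none lower, with a median log2 change of 3.57, where 44.9% of all genes were called (22.8% higher, 22.1% lower) with a median of -0.03. In WT, 46 were higher and none lower, with a median of 2.88, where 39.5% were called (21.5% higher, 18% lower) with a median of -0.01. Set against day 2, fewer members were called. In KO, 11 were higher on day 5 and none lower, with a median of 0.31 (34.4% of all genes called, 18.4% higher and 16% lower, median -0.02). In WT, 3 were higher and 4 lower, with a median of 0.10 (29.3% called, 16.2% higher and 13.1% lower, median 0.00). The share of members called higher in KO was near that of all genes, and in WT the shares of members were below it in both directions. Without the library labelled KO_D2 replicate 1 the KO count was 22 higher and none lower, with a median of 0.58; without KO_D2 replicate 2 it was 4 higher and 3 lower, and without KO_D5 replicate 1 it was 3 higher and 1 lower. The WT count was 1 higher and 1 lower without WT_D2 replicate 1, 3 lower without WT_D2 replicate 2, and 1 higher without WT_D5 replicate 1, so these counts rest on single libraries.

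Anln, Dlgap5 and Smc2 were called higher on day 5 than on day 2 in both genotypes. Anln had 79.2 and 63.4 CPM at day 5 and 33.8 and 28.6 at day 2 in KO libraries, and 51.6 and 49.4 at day 5 and 26.9 and 29.5 at day 2 in WT libraries. Its day 5 libraries did not overlap those of day 2, with a log2 change of 1.19 ± 0.25 in KO (SE, edgeR adjusted p = 0.00245) and 0.84 ± 0.25 in WT (adjusted p = 0.0227, with 7.28e-07 to 0.123 over the alternatives). Dlgap5 changed by 0.88 ± 0.15 in KO (edgeR adjusted p = 0.000133) and by 0.55 ± 0.15 in WT (adjusted p = 0.00827), the WT call ending without WT_D2 replicate 2 (adjusted p = 0.0788). Smc2 had 169 and 132 CPM at day 5 and 117 and 82.1 at day 2 in KO libraries, and 118 and 134 at day 5 and 85.4 and 87.5 at day 2 in WT libraries. Its calls were at the margin, with an edgeR adjusted p of 0.0257 in KO (6.93e-05 to 0.201 over the alternatives) and 0.0443 in WT (0.000522 to 0.212). In KO the cyclin genes Ccnb2 and Ccna2 followed Anln, at 0.94 ± 0.20 (edgeR adjusted p = 0.00138) and 0.94 ± 0.30 (adjusted p = 0.0335). The Ccna2 call ended without KO_D2 replicate 2 (0.72, edgeR adjusted p = 0.174), without KO_D5 replicate 1 (0.70, adjusted p = 0.174), without either WT day 1 library (adjusted p of 0.0502 and 0.0501) and without the low-count filter (adjusted p = 0.0893).

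The members called lower on day 5 than on day 2 in WT were Cdc20, Aurkb, Spc24 and Bub1b. Cdc20 had 30.7 and 38.6 CPM on day 5 and 59.2 and 49.7 on day 2 in WT libraries, a log2 change of -0.65 ± 0.20 (SE, edgeR adjusted p = 0.0195). In KO libraries Cdc20 had 52.2 and 38.4 CPM on day 5 and 57.4 and 35.6 on day 2, overlapping, with a change of -0.04 ± 0.19 (adjusted p = 0.908). Aurkb changed by -0.20 ± 0.14 in KO (edgeR adjusted p = 0.277) and by -0.56 ± 0.14 in WT (adjusted p = 0.00482), Bub1b by -0.26 ± 0.16 in KO (adjusted p = 0.218) and by -0.53 ± 0.16 in WT (adjusted p = 0.0168), and Spc24 by -0.34 ± 0.17 in KO (adjusted p = 0.137) and by -0.56 ± 0.17 in WT (adjusted p = 0.0179). Each of these 4 WT calls was lost without WT_D5 replicate 1, with edgeR adjusted p of 0.154 for Cdc20, 0.0501 for Aurkb, 0.144 for Bub1b and 0.159 for Spc24.

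The order of the members in the day 5 against day 2 change was alike in both genotypes, which share no libraries. Across the 47 members the KO and WT changes had a Pearson's r of 0.908 and a Spearman's rho of 0.903, given as a description, since the members share their libraries and tissue. In 28 members both changes were above 0, in 10 both were below, and in 9 the KO change was above and the WT change below. With KO_D2 replicate 1 left out, r and rho were both 0.876, and these counts were 28, 3 and 16. In KO the highest group mean was on day 5 for 36 members, on day 2 for 10 and on day 0 for Pttg1. In WT it was on day 5 for 27 members, on day 2 for 19 and on day 1 for Pttg1. When KO_D2 replicate 1 was left out, the KO tally was 43 on day 5, 3 on day 2 (Aurkb, Spc24 and Kif20b) and Pttg1 on day 0, so the day 2 tally in KO rests on that library. These 3 were also highest on day 2 in WT.

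**Figure D5:**
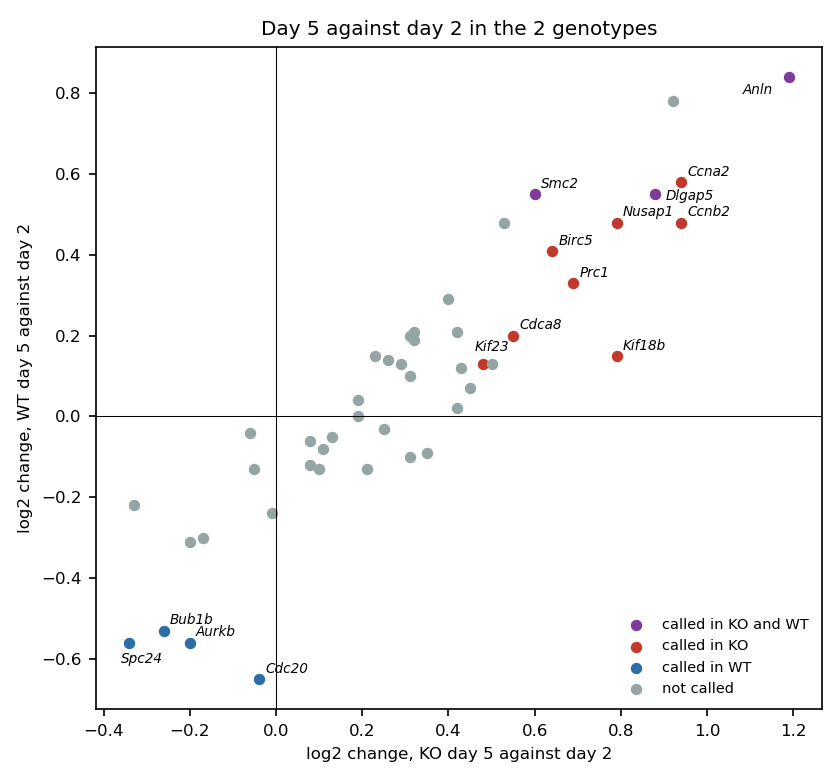
Log2 change on day 5 against day 2 for each member, KO on the x axis and WT on the y axis, coloured by whether edgeR's quasi-likelihood test called the change. Points run from Anln at 1.19 in KO and 0.84 in WT to Cdc20 at -0.04 and -0.65; Cenpf, at 0.92 in KO and 0.78 in WT, was not called.

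Markers of other cell types moved on the same days. The summed CPM of erythroid precursor genes was 14300 and 11100 in KO and 8040 and 5940 in WT libraries on day 5, against 64.0 and 181 in KO and 136 and 166 in WT on day 2, and 610 and 987 in KO and 316 and 840 in WT on day 0. Plasma cell and plasmablast genes summed to 3990 and 2470 CPM in KO and 3600 and 2840 in WT on day 2, against 635 and 704 in KO and 695 and 640 in WT on day 0. On day 5, while the mitosis set stayed high, they summed to 622 to 784 CPM in KO and 877 to 1050 CPM in WT, with 13 of 14 genes lower than on day 2 in KO and 11 of 14 in WT. Granulocyte precursor genes summed to 390 to 471 CPM in KO and 451 to 509 CPM in WT on day 5, against 34.9 to 67.2 in KO and 77.6 to 86.5 in WT on day 2, with 9 of 11 called higher in KO and 10 of 11 in WT. On day 0 they summed to 224 to 339 CPM in KO and 270 to 583 CPM in WT, so the WT day 5 sums lay within the day 0 range. Stem and progenitor genes were higher on day 5 than on day 2 in 7 of 7 tested in KO and 6 of 7 in WT. In KO this list summed to 55.9 to 57.7 CPM on day 0, 25.4 to 34.1 on day 2 and 81.3 to 93.5 on day 5. The WT sums were 55.5 to 69.5, 33.3 to 34.1, and 83.2 to 100 CPM on the same days. Without the library labelled KO_D2 replicate 1, the KO counts were 11 of 14 lower for plasma cell genes, 5 of 11 higher for granulocyte precursors and 6 of 8 higher for stem and progenitor genes. T cell genes summed to 61.5 and 144 CPM in KO and 111 and 121 in WT on day 2, against 579 and 618 in KO and 628 and 569 in WT on day 0. On days 0, 2 and 5, red pulp macrophage genes summed to 229 to 246, 104, and 346 to 354 CPM in KO. In WT they summed to 236 to 273, 106 to 107, and 316 to 367 CPM. Megakaryocyte genes summed to 6.37 to 9.89, 4.79 to 16.4, and 30.2 to 40.1 CPM in KO. Their WT sums were 8.16 to 8.71, 14.1 to 18.9, and 21.5 to 29.6 CPM. B cell genes summed to 2480 to 2580, 1440 to 1610, and 1300 to 1480 CPM in KO. The WT sums were 2360 to 2550, 1640 to 1800, and 1360 to 1660 CPM. No gene of these lists was at 0 in any group. Their part in the changes of the mitosis set was not tested.

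Between the genotypes, no member was called on any of the 4 days by edgeR's quasi-likelihood test, by DESeq2 or by limma. Without the filter on low counts, edgeR's test called 2 members on day 0 and 1 on day 5. All genes gave few calls in these contrasts, 0.0213% at day 0, 0.187% at day 1, 0.0% at day 2 and 0.00533% at day 5. The median log2 difference of the members, KO minus WT, was -0.27 at day 0, -0.05 at day 1, 0.07 at day 2 (-0.19 without the library labelled KO_D2 replicate 1) and 0.30 at day 5. The unadjusted p of edgeR's test was under 0.05 for 8, 1, 0 and 8 of the 47 members on these days. The same held for 1114, 1718, 906 and 1177 of all 18745 genes. On day 0, both KO libraries were below both WT libraries for 14 members and above for Pttg1 alone, where 14.3% of all genes were lower and 18% higher without overlap. On day 1, 4 members were higher and 11 lower without overlap, where 21.2% of all genes were higher and 26.1% lower. On day 2, Spc25 and Kif20b alone were higher without overlap and none lower, where 14.3% of all genes were higher and 17.7% lower. On day 5, 28 members were higher in both KO libraries and none lower, where 19.1% of all genes were higher and 19.0% lower.

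The day 5 difference was largest for Kif18b, which had 64.9 and 45.0 CPM in KO and 36.4 and 35.6 CPM in WT libraries. Its log2 difference was 0.61 ± 0.19 (SE, n = 2 and 2, edgeR adjusted p = 0.469), and Anln differed by 0.50 ± 0.24 (adjusted p = 0.833). Mad2l1 differed least, by 0.11 ± 0.14 (edgeR adjusted p = 0.970). On day 0 the lowest value was that of the checkpoint kinase gene Ttk, with 0.928 and 1.35 CPM in KO and 1.59 and 2.43 CPM in WT libraries, a log2 difference of -0.85 ± 0.25 (edgeR adjusted p = 0.714). Espl1 had 3.23 and 3.15 CPM in KO and 4.75 and 5.56 CPM in WT libraries on day 0, a difference of -0.70 ± 0.16 (edgeR adjusted p = 0.460). These differences did not pass the test, which does not show that the genotypes were alike.

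The change from day 0 was also compared between genotypes as an interaction. The median of the members, KO change minus WT change, was 0.22 on day 1, 0.34 on day 2 and 0.55 on day 5, beside -0.01, -0.02 and -0.01 over all genes. No member was called by edgeR's quasi-likelihood test, where 0.171%, 0.0% and 0.0% of all genes were called. The unadjusted p of that test was under 0.05 for 4, 6 and 21 of the 47 members on the 3 days. It was under 0.05 for 2463, 762 and 1483 of all 18745 genes. The share of members was thus below that of all genes on day 1 and above it on days 2 and 5. Members also moved together between replicates, also those of day 0 and KO day 5, so they are not independent and these shares are a description only. DESeq2 called 1 member on day 1 and 2 on day 5, and limma none. Without WT_D0 replicate 2 the medians were -0.04, 0.08 and 0.28, and leaving out the library labelled KO_D2 replicate 1 gave a day 2 median of 0.08. Espl1, chosen after its values were seen, had an interaction of 0.90 ± 0.21 on day 1 (edgeR adjusted p = 0.0788, with 0.00614 to 0.495 over the alternatives) and 1.12 ± 0.21 on day 5 (adjusted p = 0.144, with 8.86e-05 to 0.725). Whether it passed the threshold depended on the setting. Its values were 0.90 and 1.12 without KO_D2 replicate 1, and 0.90 and 1.14 without KO_D2 replicate 2. The KO day 2 libraries enter these contrasts only through the shared estimate of the spread. Ttk, chosen likewise, had 1.20 ± 0.31 on day 5 (edgeR adjusted p = 0.537, with 0.00454 to 0.931).

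Members moved together between replicates as well. The library labelled KO_D2 replicate 1 was above replicate 2 in 46 members, by a median of 0.47 on the log2 scale, and KO_D5 replicate 1 was above replicate 2 in all 47, by 0.33. WT_D0 replicate 1 was below replicate 2 in 45 members, with a median of -0.44, and KO_D0 replicate 1 in 39, with a median of -0.32. Over all genes these medians were between -0.01 and 0.02. The erythroid sum was also higher in replicate 1 of KO day 5 and in replicate 2 of both day 0 groups and of KO day 1. In the remaining groups it went the other way from most members. It was higher in replicate 1 of WT day 5 (8040 against 5940) and WT day 1 (325 against 152), where 40 and 42 members were lower. On WT day 2 it was lower in replicate 1 (136 against 166), where 32 members were higher. On KO day 2 it was lower in replicate 1 and the plasma cell sum was higher. Any link was not tested. The genotype medians of day 0 and day 5, -0.27 and 0.30, are about the size of these differences between replicates, and with 2 libraries a group they cannot be told apart from them.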

How the data were processed

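Ribo-depleted total RNA of 16 spleen libraries (8 groups of 2, each of 2 spleens) was analysed from the authors' transcript tables. The deposited values are counts of fragments per transcript, FPM, a signal of fragments scaled to the library total, and FPKM, which per the file headers and values is FPM per kilobase of transcript. The submitters' processing notes list bcl2fastq 2.17.1.14, HISAT2, TopHat and Trimmomatic and the build mm10, with no order. The counting tool, its annotation and any strand setting are not stated there. The authors counted a fragment in every isoform it overlaps, as judged from the deposited counts, so 1 transcript was kept for each symbol: the most counted protein-coding transcript by GENCODE vM21, which held 99.1% of the 142604 deposited identifiers, or the most counted of any type where there is none.

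Counts were fitted in R 4.3.3 with edgeR 4.0.16: filterByExpr on the groups, TMM factors, robust dispersions (biological coefficient of variation 13.1%) and the quasi-likelihood test on all 8 groups together, with 8 residual degrees of freedom. P-values were adjusted by Benjamini-Hochberg over all 18745 genes within each of 17 comparisons, with a threshold of 0.05. CPM is edgeR's count per unit of the TMM-scaled library total; library totals were recovered as deposited count over FPM. Fold changes are on the log2 scale. The test was checked on simulated data.

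Values are given in full for the 3 largest and 3 smallest changes of a comparison and for Cdk1, Ccnb1, Plk1, Aurkb, Bub1b, Cdc20, Cenpa, Ndc80, Kif11, Tpx2, Top2a, Ncapg and Ect2, and in other lists for the 2 largest changes past the threshold; not every such value is printed. The members and lists were chosen with earlier results of these data known. Replicate numbers do not pair libraries: over 28 pairs of groups, the deviations of same-numbered libraries correlated between -0.163 and 0.208, with 3 pairs over 0.1. Replicates differed by more than sampling noise in all 8 groups. The 28 alternatives covered filters, scaling, DESeq2 1.42.0 (adjusted p of NA kept as NA), limma 3.58.1 on log2 of the deposited FPKM plus 0.1 or 1, the transcript chosen, a replicate block, a fit of only the groups compared, each library left out and, chosen after seeing the data, a correction for GC content. No set test was made.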

Additional observations from a re-analysis of the deposited data

How the results depend on the processing

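With 2 libraries a group, small changes depend on single libraries and on settings; the cause was not tested unless named. Of the counts of members called, 448 stayed within 1.5 times the reported count and 28 did not. The counts against day 0 were all within it. From day 1 to day 2 in WT, 44 members called became 28 without composition scaling, 27 in limma with 0.1 added, 28 with 1 added, and 26 to 45 with a library left out. From day 2 to day 5 in WT, 7 became 11 without the low-count filter, 3 and 4 in limma with 0.1 and 1 added, 15 in a fit of only the groups compared, and 1 to 9 with a library left out; in KO, 11 became 17 without the filter and 4 to 22 with a library left out. Between KO and WT, 0 became 2 on day 0 and 1 on day 5 without the filter. For the genotype difference in the change, 0 became 1 without the filter, 1 in DESeq2 and 0 to 1 with a library left out on day 1, and 11 without the filter, 2 in DESeq2 and 0 to 1 with a library left out on day 5.

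Direction turned in 21 of the values of single members. Cenpa in WT on day 1 was -0.64 with the most counted transcript of any type. Smc2 in WT from day 1 to day 2 was -0.16 without composition scaling and -0.15 and -0.14 in limma with 0.1 and 1 added. Pttg1 in KO on day 1 was 0.11 without composition scaling, 0.10 and 0.09 in limma, 0.11 as the sum of transcripts, 0.00 with the most counted transcript of any type, 0.04 with the GC correction, and -0.08 to 0.03 with a library left out. With a library left out, Bub1b in KO from day 2 to day 5 ranged from -0.49 to 0.01. Between KO and WT on day 0 such ranges were -0.14 to 0.37 for Smc2, -0.07 to 0.43 for Kif20b and -0.16 to 0.72 for Spc25, and on day 5 -0.07 to 0.27 for Mad2l1 and -0.12 to 0.40 for Spc24.

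The fit with a replicate block called 43 members in WT and 46 in KO from day 1 to day 2, 6 in WT and 11 in KO from day 2 to day 5, and 0 between KO and WT. Of the calls named, Smc2 in WT from day 2 to day 5 was lost under the block (0.55, edgeR adjusted p = 0.0548).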
